A study of Mus musculus with 2 samples.

Results

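The 10 genes described here encode the heat shock proteins of the cytosol and mitochondria and their transcription factor, taken by symbol from a list drawn up with earlier results of these data known, out of 18987 genes in the deposited count table. They are Hsf1, Hspa1a, Hspa1b, Hspa8, Hsph1, Dnajb1, Hsp90aa1, Hsp90ab1, Hspd1 and Hspe1. All 10 were listed in the table. The cells were RAW264.7, an established mouse macrophage-like line that forms osteoclasts under RANKL, the cytokine of osteoclast differentiation. The 2 libraries were made from cells carrying a control shRNA (the control library) and cells carrying an shRNA against Cpeb4 (the knockdown library), the gene of an RNA-binding protein of the cytoplasmic polyadenylation family. Cells of each group were plated at 7500 per cm2, were given 100 ng/ml RANKL 24 h later, and, per the series title, were taken 3 days after stimulation. The labels name no clone, vector or shRNA sequence. The study asks which genes differ between these cells on the way to osteoclasts. With 1 library per group, each difference below is between 2 libraries, has no replicate check and carries no test.

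Heat shock proteins are molecular chaperones. HSP70 proteins (Hspa genes) bind unfolded stretches of client proteins in a cycle driven by ATP, J-domain proteins (Dnaj genes) load the clients and speed ATP use, and HSP110 proteins such as the Hsph1 product release ADP from HSP70. HSP90 proteins mature kinases, receptors and other clients with a set of co-chaperones, and HSP60 with its lid HSP10 folds proteins inside the mitochondrial matrix. HSF1 is held back by chaperones in resting cells and, when unfolded proteins draw them away, binds heat shock elements in front of chaperone genes.

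The control library held 79399680 counts and the knockdown library 119350322. Levels are given as CPM, counts relative to the TMM-scaled library size, and differences as the log2 ratio of knockdown over control with a 95% interval that covers counting error only. Cpeb4 itself had 25270 control counts (345 CPM) and 13491 knockdown counts (104 CPM), a log2 ratio of -1.73 (-1.76 to -1.70). All 10 markers of the macrophage and osteoclast lineage were listed, with a summed level of 44941 (control) and 10460 CPM (knockdown). Ctsk and Acp5 made up most of both sums. The log2 ratios were -2.54 for Ctsk, -2.25 for Acp5, -1.24 for Tyrobp, -1.04 for Cd68, -0.79 for Tnfrsf11a and -0.61 for Csf1r. Itgam was at -0.44 and Ptprc at -0.13. Lyz2 went the other way, at 0.998 from 418 and 1475 counts. So did Adgre1, which encodes F4/80, at 2.25 from only 12 and 101 counts. Markers of fibroblasts, lymphocytes, epithelium, granulocytes and mast cells numbered 5 listed of 23, none of which reached 1 CPM, with a summed level of 0.751 and 1.02 CPM; Col1a1 and Cd3e were not listed. Other genes moved beside the heat shock genes: the proliferation gene Mki67 was at 16.2 and 530 CPM and the osteoclast protease gene Ctsk at 24234 and 4175 CPM. Their part in the differences below was not tested, and in bulk RNA fewer cells of a type and less RNA per cell cannot be told apart.

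Under TMM scaling most of the heat shock genes stood higher in the knockdown library. A mean of 1 CPM or more was reached by 9 of the 10, of which 3 were at least 2-fold higher (Hspa1b, Hsph1 and Hsp90ab1), beside 14.6% of all 12086 genes past the same filter, and 0 were at least 2-fold lower, beside 11.8%. Of all genes past 2-fold, 55.4% were on the higher side, a share that was 70.5% under total-count, 65.5% under reference-gene and 9.6% under ribosomal-protein scaling. Hspa1b passed the filter only through its level in the knockdown library. Without it, 2 of 8 were at least 2-fold higher and the median log2 ratio was 0.60. The median of the 9 was 0.65, against 0.05 over all genes, and 8 of the 9 lay above 0, as did 52.5% of all genes. Dnajb1 was the exception. At 1.5-fold, 5 of the 9 were higher, beside 26.4% of all genes, and 1 was lower, beside 22.1%. The 10 genes together held 0.365% of the control counts (exact Clopper-Pearson interval 0.364 to 0.367) and 0.710% of the knockdown counts (0.708 to 0.711). Hspa8 and Hsp90ab1 made up most of both shares, at 0.233% and 0.499%.

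The position of 0 depends on the scaling. Total-count scaling added 0.23 to each ratio on the log2 scale, scaling to the median of 20 reference genes added 0.15, the DESeq2 and upper-quartile methods shifted it by -0.015 and -0.04, and under these no member changed sign. The cytosolic ribosomal protein genes had a median of 0.98, and 6 of the 9 members lay below it. Scaled to that median, Hspa8, Hsp90aa1, Hspd1, Hspe1 and Hsf1 turned negative, while Hsph1, Hspa1a, Hspa1b and Hsp90ab1 stayed above 0. The single reference genes ranged from -1.96 for Tfrc to 1.93 for Tubb5. Of the 20, 7 lay above the 0.35 of Hspd1, the lowest positive member, among them Gapdh at 0.72. The shift by reference genes, in size and sign, therefore depends on which genes are listed. The ratios between members in the same library, given below, are free of this choice.

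Per kb of exon, the members spanned more than 3 orders of magnitude. Hsp90ab1 was highest at 432 CPM per kb in the control library and 890 after knockdown, followed by Hspa8 (286 and 448), Hspd1 (271 and 346), Hsp90aa1 (111 and 164) and Hspe1 (94.9 and 127). Dnajb1 (22.5 and 14.9), Hsf1 (5.51 and 8.94) and Hsph1 (4.03 and 12.1) formed a lower tier, and Hspa1b (0.136 and 0.722) and Hspa1a (0.032 and 0.136) came last. Hspa8 was taken without its pseudogene copies, so its place below Hsp90ab1 depends on how shared reads were assigned. With all exons as the length, the order was the same in both libraries except that Hsph1 passed Hsf1. With the longest transcript, Hsf1 (12.5 and 20.3) stayed above Hsph1 (6.14 and 18.5). Both were then below Dnajb1 in the control library (24.1) and above it in the knockdown library (15.9). With 1 library per group the spread behind these levels is unknown, and Hspe1 passed Hsp90aa1 in the control library when the longest transcript served as the length (145 against 133).

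**Figure D1:**
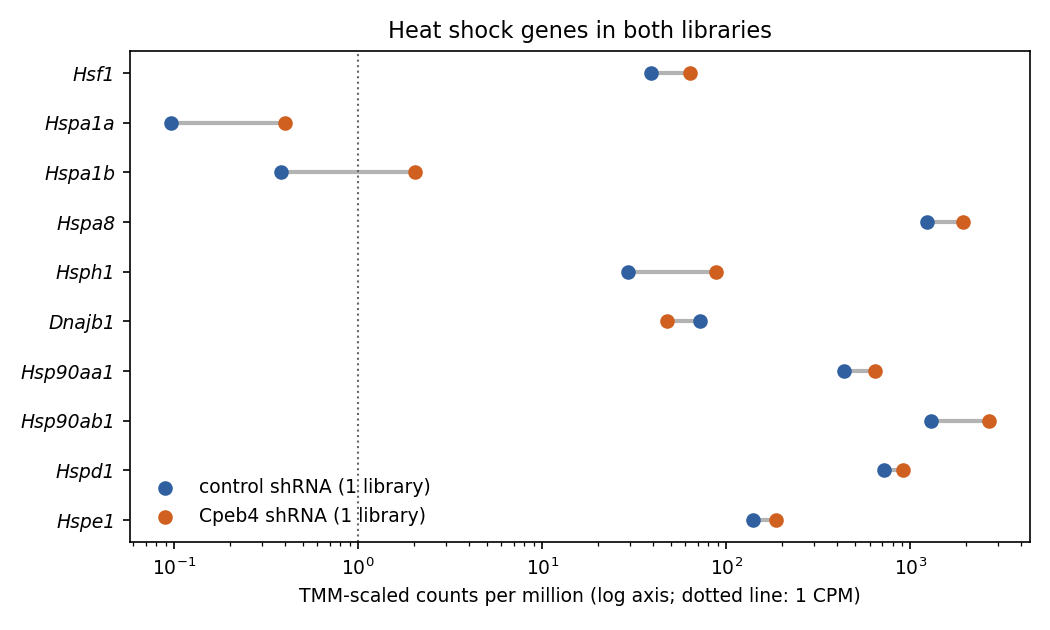
Level of each heat shock gene in TMM-scaled CPM (log axis) in the control shRNA library (blue) and the knockdown library (orange), 1 library each; grey lines join the points of a gene. Dnajb1 alone had the control point to the right (72.1 against 47.8 CPM), an order that total-count, DESeq2, upper-quartile, reference-gene and ribosomal-protein scaling kept, and Hspa1a lay below 1 CPM in both libraries.

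Hsf1, the regulator of the family, was moderately higher. Hsf1 (ENSMUSG00000022556; mm10 chromosome 15, 76477422 to 76501913, plus strand) had 2863 control counts (39.1 CPM) and 8214 knockdown counts (63.5 CPM). Its log2 ratio of 0.70 (0.64 to 0.76) was higher than that of 77.5% of genes and turned to -0.28 under ribosomal-protein scaling. As background, HSF1 is controlled mainly after translation. Of 3 listed genes of heat shock factors and regulators, the related factor gene Hsf2 was at 0.25. Hsbp1, whose product binds HSF1, was at -0.76, and Hsf4, from 98 and 88 counts, at -0.98.

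The stress-inducible HSP70 genes were scarcely expressed in either library, and their log2 ratios, from few counts, were the furthest from 0 under TMM scaling. With a pseudocount of 0.5 CPM that of Hsph1 (1.57) exceeded Hspa1b (1.52) and Hspa1a (0.60), and under ribosomal-protein scaling Dnajb1 (-1.57) lay further from 0 than Hspa1b (1.43) and Hspa1a (1.10). Hspa1b (ENSMUSG00000090877; chromosome 17, 34956436 to 34959238, minus strand) had 28 control counts (0.38 CPM) and 262 knockdown counts (2.02 CPM), a log2 ratio of 2.41 (1.84 to 3.02). Its neighbour Hspa1a (ENSMUSG00000091971; chromosome 17, 34969190 to 34972156, minus strand) had 7 and 52 counts, or 0.10 and 0.40 CPM, and did not pass the filter. Its ratio of 2.07 has an interval from 0.93 to 3.46, and a pseudocount of 2 CPM lowers it to 0.20, and that of Hspa1b to 0.76. The Hspa1b to Hspa1a ratio per length was 4.23 in control and 5.33 in knockdown cells, a difference within counting error.

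Reads of these genes cannot be fully separated. Of the 50-base stretches of the Hspa1a transcript, 66.3% also occur in a transcript of another gene, 58.8% in Hspa1b, and the 2 genes summed gave a log2 ratio of 2.34. The testis-type HSP70 gene Hspa1l, which lies in the same cluster, was also higher, with 107 and 504 counts and a log2 ratio of 1.41. Hspa1a also overlaps the opposite-strand gene model Gm20481 over 564 exon bases, and a strand setting of the counting was not given in the sources used here.

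Hspa8, which encodes the constitutive cytosolic HSC70, was the second most abundant member by the counts listed under its own symbol. It (ENSMUSG00000015656; chromosome 9, 40800984 to 40810087, plus strand) had 90029 control counts (1229 CPM) and 249576 knockdown counts (1929 CPM). The log2 ratio was 0.65 (0.64 to 0.66), a 1.57-fold difference, and -0.33 under ribosomal-protein scaling. A large share of the signal of this gene was listed under another name. Gm15459, a processed pseudogene that shares 70.0% of the 50-base stretches of the Hspa8 transcript, had 70417 and 198193 counts. Over all 7 annotated pseudogenes that share at least 1% of these stretches, the copies held 82.3% as many counts as Hspa8 in the control library and 83.5% in the knockdown library. With the copies added the log2 ratio was 0.66, as large as without them. How reads that fit both places were assigned is unknown, so the level of Hspa8 and its rank below Hsp90ab1 are uncertain in both libraries.

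Hsph1 had the highest ratio among the well-expressed members. Hsph1 (ENSMUSG00000029657; chromosome 5, 149614287 to 149636376, minus strand), an HSP110 gene, had 2144 control counts (29.3 CPM) and 11399 knockdown counts (88.1 CPM). The log2 ratio was 1.59 (1.52 to 1.66), a 3.01-fold difference that exceeded 92.9% of genes. None of its 50-base stretches occurs in another gene's transcript. The other HSP110 genes stood lower, Hspa4 at 0.33 and Hspa4l at 0.37. Per length, Hsph1 was at 0.080 of the Hspa4 level in the control library and at 0.192 in the knockdown library.

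Dnajb1 went the other way. Its product, HSP40, is the J-domain partner of HSP70 and, like the inducible HSP70 genes, a textbook target of HSF1. Dnajb1 (ENSMUSG00000005483; chromosome 8, 83608193 to 83612653, plus strand) had 5279 control counts (72.1 CPM) and 6179 knockdown counts (47.8 CPM), a log2 ratio of -0.59 (-0.65 to -0.54). It was below 0 under every scaling tried, from -0.36 with total-count scaling to -1.57 with ribosomal-protein scaling. Per kb of all exons, the control library held 5.58 times as much Dnajb1 as Hsph1 RNA, and the knockdown library 1.23 times. The 4.54-fold shift between these genes does not depend on the length, but the levels do. With the longest transcript as length, Dnajb1 was at 24.1 and Hsph1 at 6.14 CPM per kb in the control library. In the knockdown library Hsph1 was then the higher, at 18.5 against 15.9. The Dnajb1 to Hspa8 ratio per length was 0.0787 and 0.0332, with Hspa8 taken without its pseudogene copies.

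Both cytosolic HSP90 genes were higher, the constitutive gene by more. Hsp90ab1 (ENSMUSG00000023944; chromosome 17, 45567775 to 45573271, minus strand) had 94864 control counts (1295 CPM) and 345428 knockdown counts (2670 CPM), the most of any member with pseudogene copies left out. Its log2 ratio of 1.04 (1.03 to 1.05) lay just past 2-fold, ranged over the scalings from 0.07 to 1.28, and was above that of 86.3% of genes. Hsp90aa1, the stress-inducible HSP90 gene (ENSMUSG00000021270; chromosome 12, 110690605 to 110702728, minus strand), had 32064 counts (438 CPM) and 83404 (645 CPM), a log2 ratio of 0.56 (0.54 to 0.58) that was -0.42 under ribosomal-protein scaling. Per length, Hsp90ab1 stood at 3.88 times the Hsp90aa1 level in the control library and at 5.43 times in the knockdown library. Hsp90aa1 shares 58.5% of its 50-base stretches with other genes, and its 3 listed pseudogenes held 4.50% as many counts in the control library. For Hsp90ab1 the shared part was 4.5%.

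Under TMM scaling the mitochondrial chaperonin genes lay nearest to 0. Under total-count scaling Dnajb1 (-0.36) was nearer than Hspd1 (0.58) and Hspe1 (0.65), as it was under reference-gene scaling, and under ribosomal-protein scaling Hsp90ab1 (0.07) was nearest. Hspd1, which encodes HSP60 (ENSMUSG00000025980; chromosome 1, 55077835 to 55088243, minus strand), had 52467 control counts (716 CPM) and 118183 knockdown counts (913 CPM), a log2 ratio of 0.35 (0.34 to 0.37). Hspe1, which encodes HSP10 (ENSMUSG00000073676; chromosome 1, 55088132 to 55091307, plus strand), had 10241 counts (140 CPM) and 24169 (187 CPM), a log2 ratio of 0.42 (0.38 to 0.45). Ribosomal-protein scaling placed them at -0.63 and -0.56. These genes face away from each other and overlap by 112 exon bases on opposite strands. Their ratio per length was nearly the same in both libraries, 2.86 and 2.73, a difference of -0.07 on the log2 scale (-0.10 to -0.03). The length of Hspe1 bears on that level: with the longest transcript in place of all exons its control level was 145 in place of 94.9 CPM per kb. The Hspe1 transcript shares 44.8% of its 50-base stretches with other genes, mainly AC117239.2, which had 2576 and 5023 counts.

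**Figure D2:**
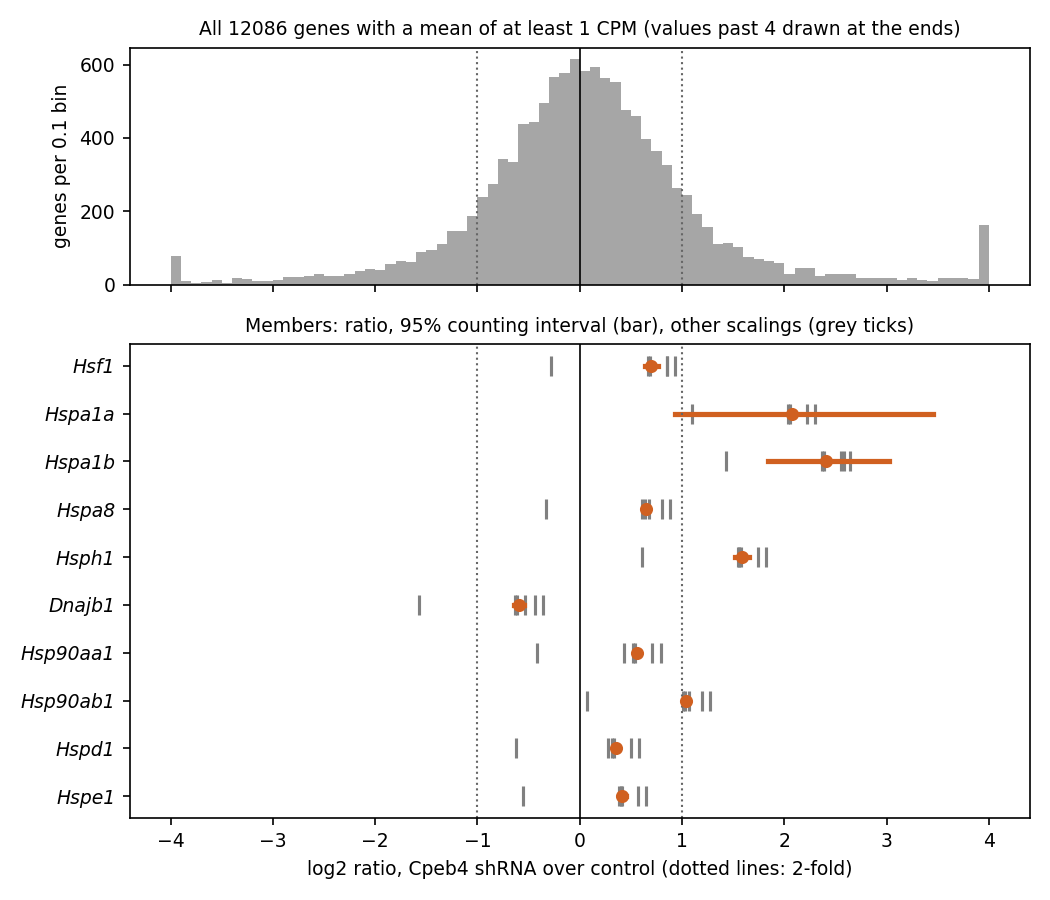
Top, log2 ratio of Cpeb4 shRNA over control for all 12086 genes past the filter. Bottom, each member's ratio (orange point) with its 95% counting interval (bar) and its values under the other scalings and after trend removal (grey ticks); Dnajb1 was below 0 throughout, Hspa1a, Hspa1b, Hsph1 and Hsp90ab1 were above 0 throughout, and Hsf1, Hspa8, Hsp90aa1, Hspd1 and Hspe1 crossed 0 only with ribosomal-protein scaling, their leftmost tick.

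Heat shock elements are inverted repeats of the unit GAA. The promoter windows of RefSeq for GRCm38.p6 run from 250 bases before to 50 after each start site and cover 6 of the 10 members. Hspa8, Hsp90aa1, Hsp90ab1 and Hsf1 have no entry. A run of 3 inverted units (GAA, NN, TTC, NN, GAA without breaks, or TTC, NN, GAA, NN, TTC, which is the other strand) occurs in 0.6% of all 32851 windows and in windows of Hspd1, Hspe1 and Hsph1. The pair of units (GAA, NN, TTC or TTC, NN, GAA), which every such run contains, occurs in 15.1% of all windows and also in those of Hspa1a and Hspa1b. The matches are shown because they differ between members whose ratios differ. Capitals mark the matching run.
Hspe1, chr1:55088053-55088082, plus strand: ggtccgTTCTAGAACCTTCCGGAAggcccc
Hspd1, chr1:55088053-55088082, minus strand: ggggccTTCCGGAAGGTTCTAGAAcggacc
Hsph1, chr5:149636282-149636306, minus strand: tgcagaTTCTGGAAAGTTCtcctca
Hspa1b, chr17:34959329-34959348, minus strand: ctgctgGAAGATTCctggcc
Hspa1a, chr17:34972247-34972266, minus strand: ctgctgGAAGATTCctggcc
The Hspd1 and Hspe1 lines are the same stretch of 4 inverted units read from either strand. It lies between the start site of Hspe1 and 1 of the start sites of Hspd1, its first base at -89 from the former and at -144 from the latter. The Hspa1a and Hspa1b windows are identical at 296 of 300 bases. Neither Dnajb1 window holds a match, which says only that these letters are not in those windows. The Hsph1 run lies after the start sites of its windows, its first base at 36 from the first and at 15 from the other. A further Hsph1 pair of units, not printed, begins at -33 from the first. By longest run, the log2 ratios of all members with windows were as follows. Hspd1 and Hspe1, which share 1 stretch of 4 units, were at 0.35 and 0.42, and Hsph1 with 3 units at 1.59. Hspa1b and Hspa1a with 2 units were at 2.41 and 2.07, both from few counts, and Dnajb1 without a match was at -0.59. A link between these matches and the ratios was not tested.

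CPEB proteins are known for binding the cytoplasmic polyadenylation element, a short U-rich motif near the end of an mRNA. It was searched as TTTTAT or TTTTAAT on the sense strand in the 3′ UTR of the main GENCODE transcript of each gene. The motif occurred in 5 of the 10 members and in 57.8% of the 12344 protein-coding genes of the table with a 3′ UTR. The median 3′ UTR length was 548 bases in the members and 960 in all these genes, and the shares were not adjusted for it. Matches within about 100 bases of the transcript end are shown, since the element is described as acting close to the poly(A) signal, with the motif in capitals.
Hspa1b: aaaaaaacTTTTATgacttaaa
Hspa1a: gactaacaTTTTATctgaagac
Hspe1: tgcctcccTTTTATaataaaca
Hsp90ab1: tttgtttgTTTTATtttgttct
They begin 34, 98, 101 and 56 bases from the 3′ end. Hsp90ab1 has another match 8 bases from its end. Dnajb1 has 2 matches, both in the upstream part of its 3′ UTR of 1834 bases, at 981 and 1453 bases from the end. Hsf1, Hspa8, Hsph1, Hsp90aa1 and Hspd1 have none. Of the genes with a match, Hspa1b, Hspa1a and Hsp90ab1 (1.04) were at least 2-fold higher under TMM scaling, and Hspe1 and Dnajb1 were within 2-fold. Of those without, Hsph1 (1.59) was at least 2-fold higher, and Hsf1, Hspa8, Hsp90aa1 and Hspd1 were within 2-fold. Whether the motif bears on the ratios was not tested.

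The co-chaperones of HSP90 were mostly above 0 under TMM scaling. Of 20 genes, 17 were above 0, beside 52.5% of all genes. At least 2-fold higher were 3 of the 20, or 15.0%, a share near the 14.6% of all genes. The median was 0.48, and -0.49 under ribosomal-protein scaling, with 4 of the 20 above 0, beside 1836 of all 12086 genes. The highest were Fkbp5 (1.59, from 682 and 3634 counts), an immunophilin gene of steroid receptor complexes, and Ppid (1.20), which encodes cyclophilin 40. The p23 gene Ptges3 was at 1.14 and the kinase adaptor gene Cdc37 at 0.52. Fkbp8 (-0.12) and the myosin chaperone gene Unc45a (-0.07) were lowest. Both turned positive under total-count scaling. Stip1, whose product HOP links HSP70 to HSP90, was at 0.34, below either HSP90 gene.

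The co-chaperones of HSP70 were nearer to 0. All 10 were within 2-fold under TMM scaling, as were 73.6% of all genes, with a median of 0.20 (-0.78 under ribosomal-protein scaling). Total-count and reference-gene scaling each placed 2 of them, Bag2 and Bag4, past 2-fold higher, beside 2487 and 2193 of all 12086 genes. Bag4 and Bag2 (0.95 and 0.94) were highest and Bag3 (-0.85) and Bag1 (-0.21) lowest, all of them genes of nucleotide exchange factors. Bag3, an HSF1 target in textbook accounts, had 7051 and 6926 counts. Among the relatives of HSP70 and HSP110, 5 passed the filter with a median of 0.37 (-0.61 under ribosomal-protein scaling). Hspa1l (1.41) and Hspa14 (0.74) were highest, and Hspa2 (-2.02, from 255 and 111 counts) and Hspa4 (0.33) lowest.

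The J-domain genes lay on both sides of 0 under TMM scaling. Of 17 past the filter, 8 were above 0 and 9 below, with 2 at least 2-fold higher, beside 14.6% of all genes, and 3 lower, beside 11.8%. Under ribosomal-protein scaling the median was -1.06, against -0.92 over all genes, and Dnajc9 and Dnajc2 alone stayed above 0. Dnajc9 (1.69), a histone chaperone gene, and Dnajc2 (1.23), which acts at the ribosome, were highest. Dnajb5 (-1.62) and the membrane-anchored Dnajb14 (-1.54) were lowest. Dnaja1, an abundant partner of HSC70, was at -0.08, and at 0.15 under total-count scaling.

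The cytosolic chaperonin TRiC, which folds actin and tubulin, had each subunit gene above 0 under TMM scaling. Its 8 subunit genes lay between 0.36 (Cct3) and 0.99 (Cct5), with a median of 0.83 that turned negative under ribosomal-protein scaling. None reached 2-fold under TMM scaling, where 14.6% of all genes were at least 2-fold higher. Under total-count scaling 5 of the 8 reached it (Cct4, Cct5, Cct7, Cct8 and Tcp1), beside 2487 of all 12086 genes. Reference-gene scaling placed 3 there, beside 2193 of all genes. Prefoldin, which hands clients to TRiC, ranged from -0.63 (Pfdn1) to 0.88 (Pfdn2), with Pfdn5 at 0.05.

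Other HSF1 targets were split under TMM scaling, 7 above 0 and 7 below of 14, with a median of 0.12 that was -0.01 once the trend with GC content and length was taken out. Under total-count scaling 9 of the 14 were above 0, beside 7720 of all 12086 genes, and under ribosomal-protein scaling 2, beside 1836. Ptges3 (1.14) and Fkbp4 (0.99), an immunophilin gene, were highest. The metallothionein gene Mt2 (-1.58) and the heme oxygenase gene Hmox1 (-0.86) were lowest. This list overlaps those above. Ptges3, Fkbp4, Stip1 and others are also in the HSP90 co-chaperone list, and all genes shared with it were above 0 under TMM scaling. Bag3 and Dnaja1, both below 0, are shared with the HSP70 co-chaperone and J-domain lists. Hspb1 and Hspb8 were not listed in the table and are not analysed here. Of the small heat shock protein genes 3 passed the filter: Hspb6 at 1.20, Hspb11 at 0.32 and Hspb7 at -1.99. Hspb7, known from heart muscle, was at 212 and 53.2 CPM.

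**Figure D3:**
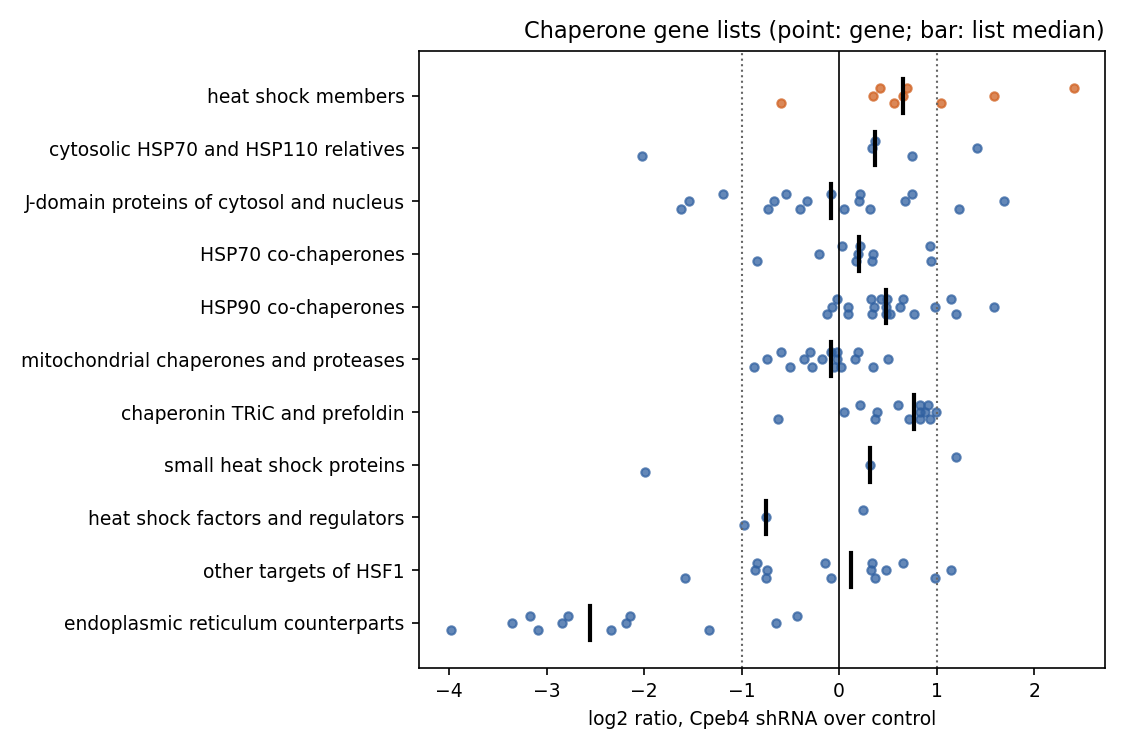
Log2 ratio of Cpeb4 shRNA over control for the genes of each chaperone list past the filter (point: 1 gene; black bar: list median; dotted lines: 2-fold). TMM medians were 0.65 for the heat shock members, 0.48 for HSP90 co-chaperones and 0.77 for TRiC and prefoldin, all 3 negative under ribosomal-protein scaling, and -2.56 for the endoplasmic reticulum counterparts.

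The same chaperone families differed by compartment. For HSP70, cytosolic Hspa8 was at 0.65, mitochondrial Hspa9 at -0.09 (0.15 under total-count scaling) and Hspa5, which encodes BiP of the endoplasmic reticulum, at -3.09. For HSP90, cytosolic Hsp90ab1 was at 1.04, mitochondrial Trap1 at -0.02 (0.21 under total-count scaling) and Hsp90b1, which encodes GRP94, at -3.17. For HSP110, Hsph1 was at 1.59 and its endoplasmic reticulum counterpart Hyou1 at -2.19. Other cytosolic genes of the HSP90 and HSP110 families stood lower, Hsp90aa1 at 0.56, Hspa4l at 0.37 and Hspa4 at 0.33. Hspa4 was above Hsph1 per kb of exon in the control library (50.3 against 4.03 CPM per kb) and the knockdown library (63.3 against 12.1). The mitochondrial chaperonin genes Hspd1 and Hspe1 were at 0.35 and 0.42. Ratios within each library do not depend on scaling. Per length, Hspa8 was at 0.150 of the Hspa5 level in the control library and at 2.01 times that level in the knockdown library, a 13.4-fold shift. The Hspa8 levels here leave out its pseudogene copies, which held 82.3% and 83.5% as many counts. Both levels therefore depend on how shared reads were assigned. Hsp90ab1 went from 0.234 of the Hsp90b1 level to 4.35 times, an 18.5-fold shift. Against the mitochondrial genes the shifts were smaller, 1.66-fold for Hspa8 over Hspa9 and 2.09-fold for Hsp90ab1 over Trap1. The 12 endoplasmic reticulum counterparts held 2.46% of control and 0.453% of knockdown counts, and 10 of them were at least 2-fold lower, beside 11.8% of all genes. Dnajc10 (-0.43) and Canx (-0.65) were highest, and Pdia4 (-3.99) and Dnajb9 (-3.35) lowest.

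Mitochondrial chaperones and proteases were within 2-fold under TMM scaling, all 17 of them, beside 73.6% of all genes, with a median of -0.09 that was 0.15 under total-count scaling and 0.07 with reference genes. Under ribosomal-protein scaling the median was -1.06, against -0.92 over all genes. By that scaling 11 of the 17 were at least 2-fold lower, as were 5589 of all 12086 genes. Clpx (0.50), a protease subunit gene, and Dnajc19 (0.35), of the import motor, were highest. Dnaja3 (-0.88), the J-domain partner of mitochondrial HSP70, and Grpel1 (-0.74), its exchange factor, were lowest. Hspd1 was at 1.23 times the Hspa9 level per length in the control library and at 1.66 times in the knockdown library.

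**Figure D4:**
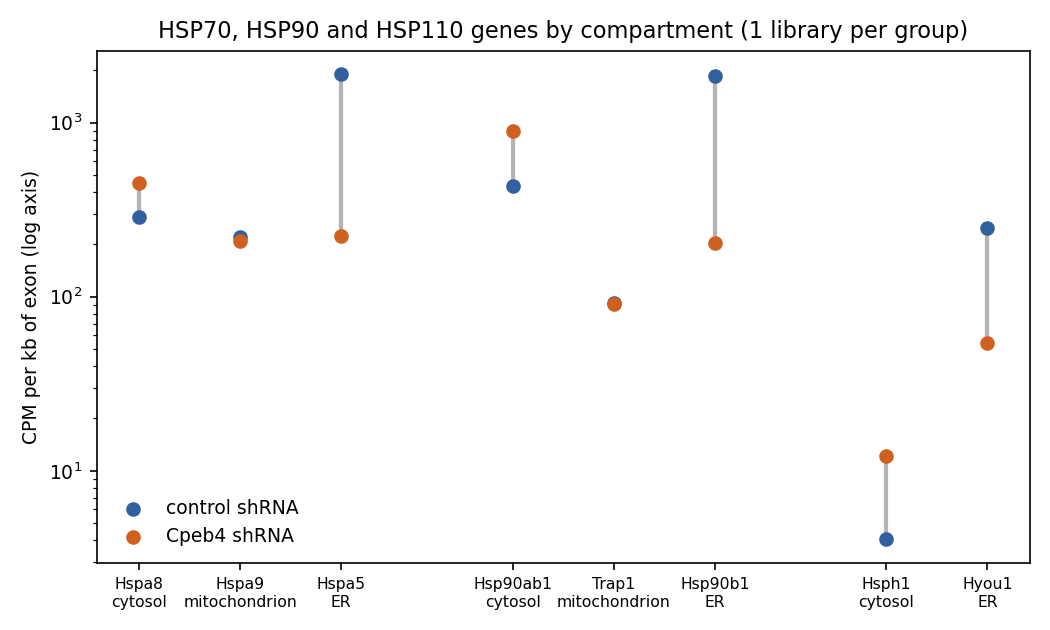
Level per length, in CPM per kb of exon (log axis), of HSP70, HSP90 and HSP110 genes of the cytosol, mitochondrion and endoplasmic reticulum (ER) in the control shRNA library (blue) and the knockdown library (orange). The ER genes Hspa5, Hsp90b1 and Hyou1 were lower in the knockdown library, Hspa9 and Trap1 nearly level under TMM scaling, and Hspa8, Hsp90ab1 and Hsph1 higher, Hspa8 only until scaled to ribosomal protein genes. Hspa8 is drawn without its pseudogene copies. Hsp90aa1, Hspa4 and Hspa4l, cytosolic genes of these families with lower ratios than Hsp90ab1 and Hsph1, are not drawn.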

How the data were processed

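Whole-number read counts per gene were deposited by the authors, 1 column for each of the 2 libraries. HISAT2 and the build mm10 are named in the submitters' processing notes. Not given in the sources used here: HISAT2's version, the counter, the annotation, the strand setting, the read length and the treatment of reads with several alignments. Every listed gene has a count in both libraries, so genes at 0 in either are not analysed here.

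Counts were TMM-scaled in edgeR 4.0.16 (R 4.3.3), with factors of 0.922 and 1.08. Log2 ratios carry exact Clopper-Pearson intervals of a gene's share of its 2 counts. Differences between 2 genes carry normal-approximation counting intervals; 16 gene pairs, chosen with values known, were compared. PCR copies are not independent molecules, so intervals cover counting error only. With 1 library per group no test was made. Differences were called by size, at 2-fold. Levels per length use all annotated exons of GENCODE M21 (GRCm38, the assembly mm10 names; 18935 of 18987 identifiers found). Pseudogenes sharing at least 1% of a transcript's 50-base stretches were taken as near copies. The code was tested on simulated counts.

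The members and lists were chosen with earlier results of these data known. The rule for named genes took all members, Cpeb4, the 2 highest and 2 lowest genes of each chaperone list, and Hspa9, Trap1, Bag3, Stip1, Hspb1, Dnaja1, Hsf2, Hspa5 and Hsp90b1. Also named outside the rule were Cct3, Cct4, Cct8, Tcp1, Pfdn2, Hspb8, Tfrc, Tubb5, Gm20481 and the cell type markers. Ptges3, Cdc37, Hspa4l, Hyou1, Gm15459, AC117239.2, Mki67, Ctsk and Gapdh were added after their values were seen. With 2 libraries a pattern is a single ratio, so no gene was named for a like pattern. Alternatives were other scalings, pseudocounts, filters, size thresholds, gene lengths, and sums over near copies.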

Additional observations from a re-analysis of the deposited data

How the results depend on the processing

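No paired analysis was possible because there was 1 library per group and no test. Ribosomal-protein scaling, trend removal and the sum over near-identical pseudogenes were chosen after seeing the data. Cpeb4 stayed below 0, at -1.49 with total-count, -1.76 with upper-quartile, -1.57 with reference-gene and -2.70 with ribosomal-protein scaling, and -1.77 after trend removal. The median of the members past the filter was 0.88 with total-count, 0.61 with upper-quartile, 0.80 with reference-gene and -0.33 with ribosomal-protein scaling, and 0.60 under a 10 CPM filter. Members at least 2-fold higher numbered 1 with ribosomal-protein scaling, 5 at 1.5-fold and 1 at 4-fold. At least 2-fold lower was 1 member with ribosomal-protein scaling and 1 at 1.5-fold, Dnajb1 in both. Over all genes, 596 were higher and 5589 lower with ribosomal-protein scaling, 3191 and 2674 at 1.5-fold, 582 and 426 at 4-fold, 3217 and 2930 with no filter, and 1025 and 907 with a 10 CPM filter. Scaling shifts every ratio alike, and filters and thresholds change which genes enter.

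Ribosomal-protein scaling turned Hspa8 to -0.33, Hsp90aa1 to -0.42, Hspd1 to -0.63, Hspe1 to -0.56 and Hsf1 to -0.28. It placed the medians at -0.61 for HSP70 and HSP110 relatives, -0.78 for HSP70 co-chaperones, -0.49 for HSP90 co-chaperones, -0.21 for TRiC with prefoldin, -0.66 for small heat shock proteins, -0.85 for other HSF1 targets and -1.06 for both the mitochondrial and the J-domain lists. The mitochondrial list turned to 0.15 with total-count and 0.068 with reference-gene scaling, and the J-domain list to 0.15 and 0.070. The small heat shock list was at -0.84 with no filter and -1.99, the value of Hspb7, with a 10 CPM filter. Other HSF1 targets were at -0.013 after trend removal and -0.084 with no filter. Counts of near-identical pseudogenes, added to the 5 members that have them in the table, moved Hspa8 from 0.65 to 0.66 and no other of the 5 by more. For Hspe1 that sum added 1 count in each library. It left out AC117239.2, annotated as protein-coding, which shares 35.2% of the Hspe1 stretches. AC117239.2 had 2576 control and 5023 knockdown counts, a log2 ratio of 0.14, below the 0.42 of Hspe1.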

Other observations

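Gapdh, a common reference gene, was itself listed at a low level, with 3736 control and 10900 knockdown counts, a log2 ratio of 0.72. Of the 50-base stretches of its transcript 82.5% occur in transcripts of other genes. The 86 listed pseudogenes that share at least 1% of them held 188803 and 362731 counts, 50.5 and 33.3 times the counts of Gapdh. Gapdh with these copies had a log2 ratio of 0.14. For Hspa8, the member with the most counts under copies, the copies alone were at 0.67 and the gene at 0.65.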
